A study of Mus musculus with 6 samples.

Results

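The serotonin receptors are the proteins through which serotonin acts on hippocampal neurons, and their transcripts were examined in hippocampus of Phf8 knockout (KO) and wild-type (WT) mice. Of 10 receptor genes taken by name, 9 had probe sets on the Affymetrix mouse array that the platform's gene table pairs with that gene alone. These 9 are among 18193 genes with such a probe set, and they had 17 of the 45037 probe sets. The remaining gene, Htr2a, is not paired with a probe set in that table and was not analysed here.

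The Phf8 KO group and the WT group had 3 samples each, with 1 array a sample, from hippocampus of 10-week-old mice that the labels place on a C57BL/6 background. According to the methods, KO mice were hemizygous males that lack the exons for the core of the JmjC demethylase domain of Phf8, deleted with EIIa-Cre, which acts in the early embryo. The allele was made on a 129/S6/SvEv background and then backcrossed to C57BL/6J, and WT mice were littermates. The wording of the methods leaves it unclear whether an array holds tissue of 1 mouse or of several, so the p-values measure the spread between these samples only.

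Serotonin reaches the hippocampus along fibres from the raphe nuclei of the brainstem. All of its receptors except the 5-HT3 type are coupled to G proteins. The 5-HT1 and 5-HT5 receptors couple mainly to inhibitory Gi/o proteins, the 5-HT2 receptors to Gq and phospholipase C, and the 5-HT4 and 5-HT7 receptors to Gs and adenylyl cyclase, while 5-HT3 is a cation channel opened by serotonin. In hippocampus, 5-HT1A is known from pyramidal and granule cells and 5-HT3A from a subset of interneurons. Htr2c is also known as one of the abundant transcripts of the choroid plexus epithelium.

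The values are log2 MAS5 signals, a summary of the probes of a probe set on a log2 scale. A difference of 1 is therefore a factor of 2, and a difference is always KO minus WT. Signals of different probe sets depend on their probes and are not set against each other. A probe set counted as above background when 3 or more of the 6 arrays gave it a signal higher than that array's 40th percentile, a level between 5.73 and 6.05. Of the 17 receptor probe sets, 11 met this rule, from Htr1a, Htr1b, Htr2c, Htr3a, Htr4, Htr5a, Htr5b and Htr7. All 11 exceeded the level on all 6 arrays, and the lowest value among them was 6.29. The same 11 also exceeded, on every array, the 95th percentile of 126 probe sets of olfactory, vomeronasal and taste receptor and keratin-associated genes, which lay between 5.54 and 6.27.

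The arrays as a whole set limits on any receptor. The Phf8 probe set above background had log2 signals of 8.23, 8.55 and 7.99 in KO replicates 1 to 3, against 9.90, 9.66 and 9.73 in WT replicates 1 to 3, so Phf8 was lower on every library labelled KO. Whether this probe set covers the deleted exons was not known. KO replicate 3 stood apart, with correlations across probe sets of 0.899 to 0.925 with the other arrays. On it 14 marker genes of thalamus and habenula had a median 2.40 above the WT mean, and the 8 hippocampal neuron genes used to check the tissue had a median of -1.50. These 8, among them Neurod6 and Zbtb20, were above background on every array, and all 8 were lower on KO replicate 3 than on any WT array. Receptor differences are given with and without this array. In tissue RNA, fewer cells of a type and less RNA per cell cannot be told apart.

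**Figure D1:**
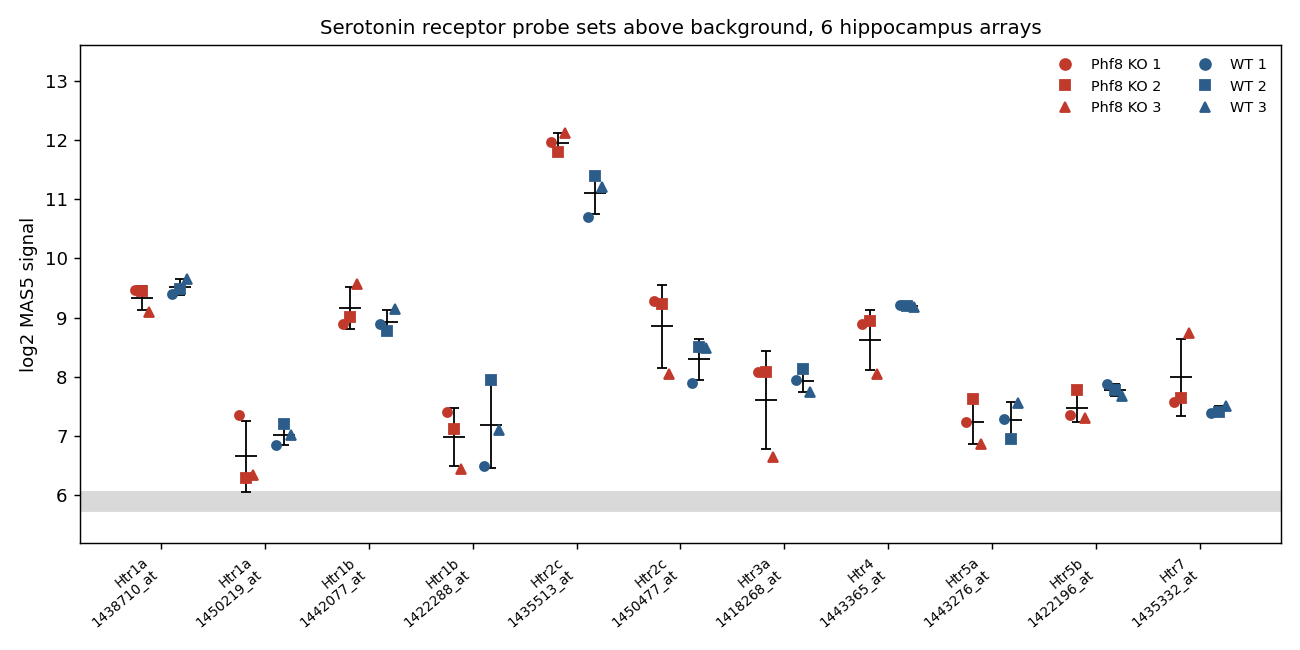
Log2 MAS5 signal (y axis) of the 11 serotonin receptor probe sets above background, on the 3 Phf8 KO arrays (left of each pair) and the 3 WT arrays. Black bars give the group mean and SD, and the grey band spans the background levels of the 6 arrays, from 5.73 to 6.05. Only for Htr2c 1435513_at, Htr4 and Htr7 do the groups not overlap.

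Among the receptors, Htr2c had a higher mean in KO hippocampus on both of its probe sets, each above background, and Htr4 had a lower mean in KO. Htr2c had a difference of 0.85 on probe set 1435513_at and of 0.56 on 1450477_at, and Htr4 one of -0.57. The other Gs-coupled receptor, Htr7, had a difference of 0.55, most of it from KO replicate 3. None of the 11 probe sets passed an adjusted p of 0.05 in limma (adjusted p from 0.663 to 0.985 over 27408 probe sets). By the same rule 6 of the 27408 passed (0.0219%), all lower in KO, and 1694 (6.18%) had an unadjusted p under 0.05. Of the 11 receptor probe sets 1, of Htr2c, was past that level and higher in KO (3.12% of all), and 0 were lower (3.06% of all).

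Of the 11, 4 had a higher mean in KO (48.1% of all) and 7 a lower one (51.9% of all), and their median difference was -0.18, beside -0.01 over all 27408 probe sets. Without KO replicate 3 the median of the 11 was 0.08, so its sign rests on that array. At a fold of at least 1.5, 1 of the 11 was higher (3.84% of all probe sets) and 0 were lower (3.82%). KO replicate 3 held the highest or the lowest of the 6 values for 9 of the 11, as it did for 68.9% of all probe sets. For 3 of the 11 the groups did not overlap (15.2% of all), 2 with KO higher (7.37%) and 1 with KO lower (7.83%). Without KO replicate 3 this held for 4 of the 11 (30.1% of all), 3 with KO higher (15%) and 1 with KO lower (15.1%).

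Htr2c encodes the Gq-coupled 5-HT2C receptor, whose messenger RNA is edited by adenosine deaminases. Probe set 1435513_at had log2 signals of 11.96, 11.79 and 12.12 in KO replicates 1 to 3. It had 10.71, 11.40 and 11.21 in WT replicates 1 to 3. Every KO array thus lay above every WT array, and WT replicate 1 was the lowest. The means were 11.96 ± 0.17 in KO and 11.11 ± 0.36 in WT (SD, n = 3 each), a fold of 1.80. The standard error of the difference, 0.85, was 0.19 (unadjusted p = 0.00236, adjusted p = 0.663 from limma). An exact two-sided permutation test gave p = 0.1, the smallest that 3 against 3 arrays allow. With gene-by-gene array weights, an alternative chosen after the data were seen, this was the 1 receptor probe set past the threshold (difference 0.90, adjusted p = 0.0428 from limma), with adjusted p from 0.176 to 0.999 under the other alternatives.

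The second Htr2c probe set, 1450477_at, is paired with the RefSeq mRNA of the gene. It had 9.28, 9.23 and 8.04 in KO replicates 1 to 3, against 7.90, 8.51 and 8.48 in WT replicates 1 to 3. KO replicates 1 and 2 lay above every WT array, and KO replicate 3 lay below 2 of the 3. Here the difference was 0.56 (standard error 0.36, unadjusted p = 0.163, adjusted p = 0.792 from limma). The 2 probe sets thus parted on KO replicate 3, where 1435513_at was 1.02 above its WT mean and 1450477_at had a value of -0.25 relative to its own. Without that array the differences were 0.77 and 0.96, and both passed a fold of 1.5, with 2.82% of all probe sets that much higher and 4.05% that much lower (adjusted p = 0.176 and 0.132 from limma). With the mean of both probe sets as 1 value for the gene, the difference was 0.70 (standard error 0.22, unadjusted p = 0.0132, adjusted p = 0.675 from limma over genes).

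Choroid plexus markers varied between the arrays. Of 12 listed, 11 were on the array and above background. Their linear signals summed to 17741 to 40018 on the KO arrays and to 30713 to 38529 on the WT arrays. Their median relative to the WT mean was 1.33, 0.47 and -2.07 in KO replicates 1 to 3, against 0.06, 0.98 and -1.04 in WT replicates 1 to 3. Without KO replicate 3 the median difference of the 11 markers was 0.85, near the Htr2c differences of 0.77 and 0.96 without that array, and 10 of the 11 had a higher mean in KO (0.57 to 1.13). Htr2c 1435513_at was highest on KO replicate 3, where the median of these markers was lowest. Probe set 1450477_at had its highest value on KO replicate 1, like the markers. On WT replicate 3, where the markers were low, the Htr2c probe sets were 0.11 and 0.19 above their WT means. The exception among the 11 was Ttr, the thyroid hormone carrier made by choroid plexus, at -0.18 without KO replicate 3. Its signals, up to 14.83, lay near the highest of any probe set on the arrays (14.82 to 14.91), and it made up most of the summed signal. The other 10 markers summed to 15209, 8280 and 2082 in KO replicates 1 to 3, against 6198, 11810 and 2983 in WT replicates 1 to 3. The part of choroid plexus tissue in the Htr2c values was not tested.

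Among the Gs-coupled receptors, Htr4, which encodes the 5-HT4 receptor, had log2 signals of 8.90, 8.94 and 8.04 on probe set 1443365_at in KO replicates 1 to 3. The WT values were close together, at 9.22, 9.20 and 9.18. All KO arrays lay below all WT arrays, and KO replicate 3 lay far below the other KO arrays. The means were 8.63 ± 0.51 in KO and 9.20 ± 0.02 in WT (SD, n = 3 each). The standard error of the difference, -0.57, was 0.25 (unadjusted p = 0.0541, adjusted p = 0.782 from limma). Without KO replicate 3 it was -0.28 (unadjusted p = 0.0359, adjusted p = 0.365 from limma). The direction thus did not rest on that array, and the size did.

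Htr7 encodes the 5-HT7 receptor, which is known from thalamus as well as hippocampus. Probe set 1435332_at had 7.58, 7.64 and 8.75 in KO replicates 1 to 3, against 7.40, 7.41 and 7.51 in WT replicates 1 to 3. The groups did not overlap, but KO replicates 1 and 2 exceeded the highest WT array only narrowly. The difference was 0.55 (standard error 0.32, unadjusted p = 0.125, adjusted p = 0.788 from limma), and it was 0.17 without KO replicate 3. On KO replicate 3 all 14 thalamus and habenula markers above background exceeded their WT mean. Their linear signals summed to 7136 to 37862 on the KO arrays and to 5440 to 6234 on the WT arrays. Of the 16 markers listed, Gbx2 and Pou4f1 were not above background. Whether tissue of these regions carries the Htr7 signal was not tested.

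The Gi/o-coupled Htr1a, the 5-HT1A receptor that serves as an autoreceptor in the raphe and a postsynaptic receptor here, had a lower mean in KO on both probe sets, and neither passed in limma. On probe set 1438710_at it had 9.47, 9.45 and 9.10 in KO replicates 1 to 3, against 9.39, 9.49 and 9.66 in WT replicates 1 to 3. The groups overlapped. KO minus WT was -0.18 (standard error 0.16, adjusted p = 0.820 from limma), and -0.06 without KO replicate 3. On 1450219_at the values were 7.35, 6.29 and 6.35 in KO and 6.85, 7.20 and 7.01 in WT. Here KO replicate 1 was the highest array and KO replicates 2 and 3 were the lowest, and KO minus WT was -0.36 (standard error 0.33, adjusted p = 0.823 from limma). Without KO replicate 3 it was -0.20, and leaving out 1 array at a time gave -0.70 (without KO replicate 1) to -0.17 (without KO replicate 2).

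Htr1b encodes the 5-HT1B receptor, which sits on axon terminals. Probe set 1442077_at had 8.90, 9.02 and 9.57 in KO replicates 1 to 3 and 8.89, 8.78 and 9.14 in WT replicates 1 to 3. The groups overlapped. KO minus WT was 0.23 (standard error 0.21, adjusted p = 0.827 from limma), and 0.02 without KO replicate 3. Probe set 1422288_at had 7.40, 7.13 and 6.45 in KO and 6.50, 7.94 and 7.10 in WT. Its spread in WT (SD 0.72) was wider than the KO minus WT value of -0.19 (standard error 0.41, adjusted p = 0.925 from limma), whose sign turned without KO replicate 3 (0.08) and without WT replicate 2 (0.19).

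Both 5-HT5 receptor genes were above background. Htr5a had 7.23, 7.62 and 6.87 on 1443276_at in KO replicates 1 to 3, against 7.30, 6.96 and 7.56 in WT replicates 1 to 3. The groups lay over each other, and KO minus WT was -0.03 (standard error 0.26, adjusted p = 0.985 from limma), or 0.16 without KO replicate 3. Htr5b, which is intact in rodents and a pseudogene in humans, had 7.36, 7.77 and 7.31 in KO, against 7.87, 7.78 and 7.67 in WT. KO replicates 1 and 3 lay below every WT array and KO replicate 2 within them, and KO minus WT was -0.29 (standard error 0.19, adjusted p = 0.792 from limma). Leaving out 1 array at a time gave -0.44 to -0.21 for Htr5b, with -0.21 without KO replicate 3.

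Htr3a, the subunit that forms the 5-HT3 channel, had 8.09, 8.08 and 6.65 on 1418268_at in KO replicates 1 to 3, against 7.95, 8.13 and 7.74 in WT replicates 1 to 3. KO replicates 1 and 2 lay within the WT range, and KO replicate 3 lay far below it. KO minus WT was -0.33 (standard error 0.39, adjusted p = 0.860 from limma) and became 0.15 without KO replicate 3, so its direction rests on that array. The 15 interneuron markers, all above background, had a median of 0.09, 0.06 and -0.07 relative to the WT mean in KO replicates 1 to 3, against 0.03, -0.08 and 0.15 in WT replicates 1 to 3. Their summed linear signal was 38745 to 40110 on the KO arrays and 34905 to 39769 on the WT arrays. Single markers moved widely in both directions on KO replicate 3, where 7 of the 15 lay above all WT arrays and 7 below all WT arrays. The lowest relative to its WT mean was the neuropeptide gene Vip, with 8.74 on KO replicate 3 against a WT mean of 10.61 (-1.87), and the highest was the calcium-binding protein gene Calb2, with 11.59 against 9.14 (2.45). The cannabinoid receptor gene Cnr1, with 11.79 against 12.79, and Pvalb, with 9.94 against 10.90, were also low on that array. Vip, Cnr1 and Calb2 are each known from interneuron types that carry 5-HT3A, and Calb2 moved the other way from Vip and Cnr1. Whether interneuron content bears on the Htr3a values was not tested.

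**Figure D2:**
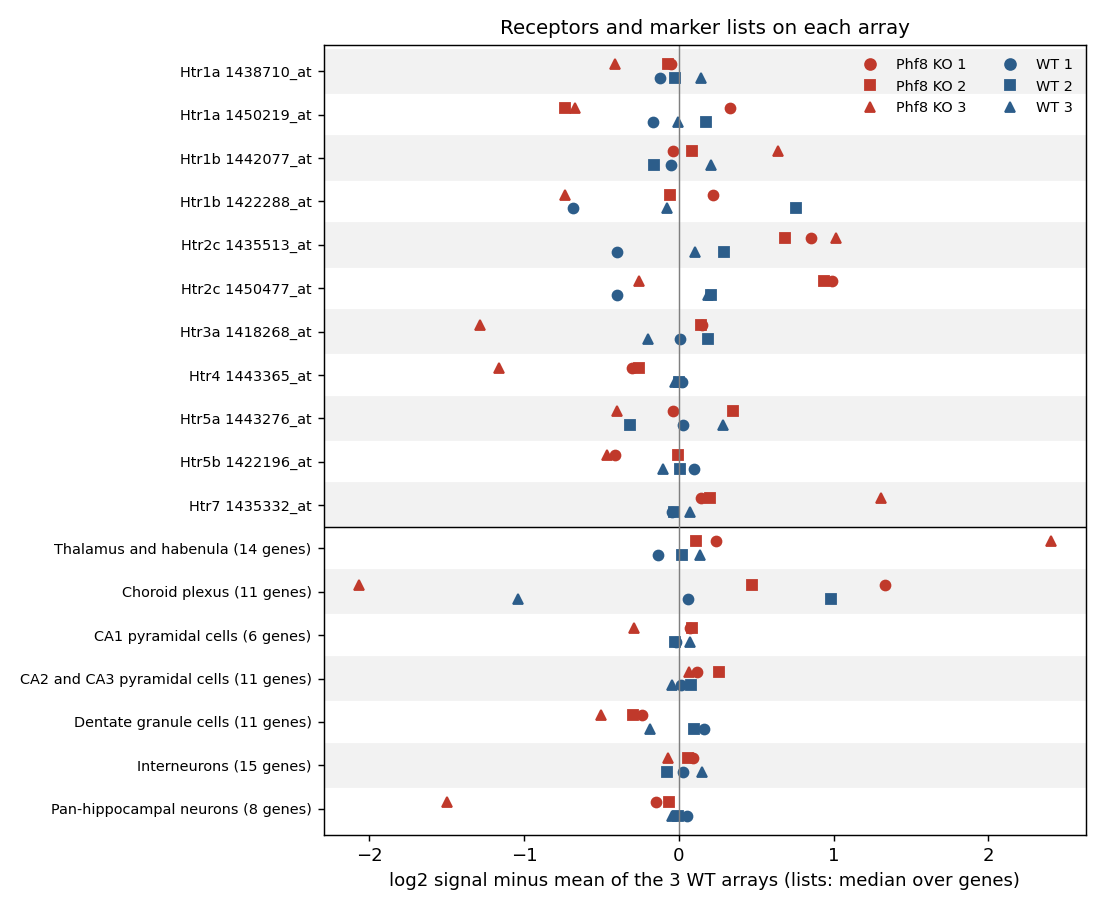
Log2 signal relative to the WT mean (x axis) for the 11 receptor probe sets, above the line, and the median of 7 marker lists, below it. In each row the KO arrays are drawn above the WT arrays. KO replicate 3 lies at 2.40 for thalamus and habenula and at -2.07 for choroid plexus, and at 1.31 for Htr7, -1.16 for Htr4 and -1.29 for Htr3a.

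The fields of the hippocampus were also measured beside the receptors. The 6 measured CA1 markers had a median of 0.07, 0.08 and -0.29 in KO replicates 1 to 3, against -0.02, -0.02 and 0.08 in WT. The 11 dentate granule cell markers had -0.24, -0.30 and -0.50, against 0.16, 0.10 and -0.19 in WT replicates 1 to 3. Of the 11, 10 had a lower mean in KO, beside 6206 of all 12903 genes. Among these Lct had a difference of -0.76 (unadjusted p = 0.00491, adjusted p = 0.773 from limma). Of the 11, 3 were lower and 1 was higher at an unadjusted p under 0.05 from limma, beside 3.06% and 3.12% of all probe sets. The 11 markers of CA2 and CA3 had a median of 0.12, 0.26 and 0.06 in KO, against 0.01, 0.08 and -0.04 in WT. On KO replicate 3, 5 of these 11 lay above all WT arrays and 4 below, from -1.18 (Iyd) to 2.67 (Cacng5) relative to WT. Of the 6 CA1 markers 1 lay above and 4 below, from -2.13 (Pou3f1) to 0.70 (Wfs1). Of the 11 dentate markers 1 lay above and 8 below, from -1.40 (Dsp) to 1.10 (Pla2g4e). Summed linear signals were 6986 to 12504 on the KO arrays and 9778 to 10186 on the WT arrays for CA1, and 9183 to 11917 on the KO arrays and 12080 to 15197 on the WT arrays for the dentate gyrus. For CA2 and CA3 they were 18307 to 29682 on the KO arrays and 16053 to 16973 on the WT arrays. Pcp4 of that list had a log2 signal of 14.20 on KO replicate 3, against a WT mean of 12.66. All markers of these 3 lists that the array holds were above background, and their part in the receptor values was not tested.

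**Figure D3:**
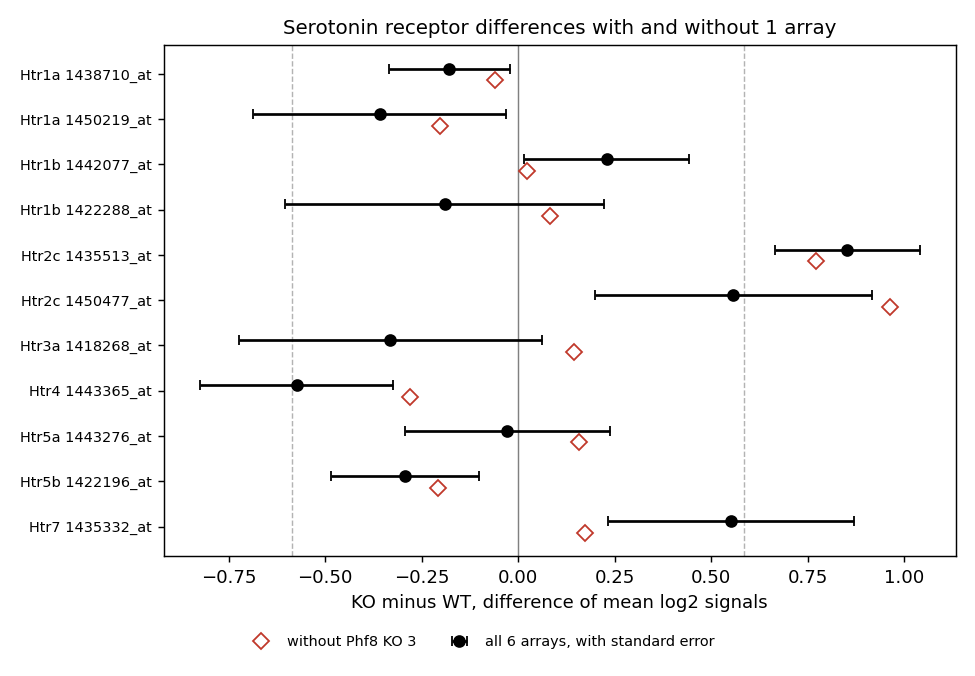
Difference of mean log2 signals, KO minus WT (x axis), for the 11 receptor probe sets, with the standard error from limma over all 6 arrays (black) and the difference without Phf8 KO replicate 3 (open diamonds). Dashed lines mark a fold of 1.5. Without that array the Htr2c probe sets lie at 0.77 and 0.96 and the other 9 between -0.28 and 0.17.

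Of the receptor probe sets, 6 were below background, and their values have no reliable order. All 3 probe sets of Htr1d, the 5-HT1D receptor, were among them. On 1440741_at, Htr1d had 4.28, 4.18 and 6.42 in KO replicates 1 to 3, against 4.62, 3.95 and 3.69 in WT, and the 6.42 in KO replicate 3 was the only value of the 6 probe sets above the level of its array. On the other arrays this probe set ran from 3.69 to 4.62, well below the level. Of the probe sets above background, Htr1a 1450219_at, with a lowest value of 6.29, came nearest to the level. On 1440166_x_at, Htr1d had 3.41, 0.95 and 5.51 in KO and -0.23, 0.12 and 0.52 in WT. These groups did not overlap, but all 6 values lay below background, so no fold is given. On 1422290_at it had 4.90, 3.17 and 5.91 in KO and 5.52, 5.45 and 5.13 in WT. The dim probe sets of Htr4, Htr5a and Htr7 ran from 1.78 to 5.08, from 2.86 to 5.16 and from 4.98 to 5.71 on the KO arrays and from 3.87 to 5.91, from 1.48 to 5.02 and from 3.96 to 5.53 on the WT arrays.

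**Figure D4:**
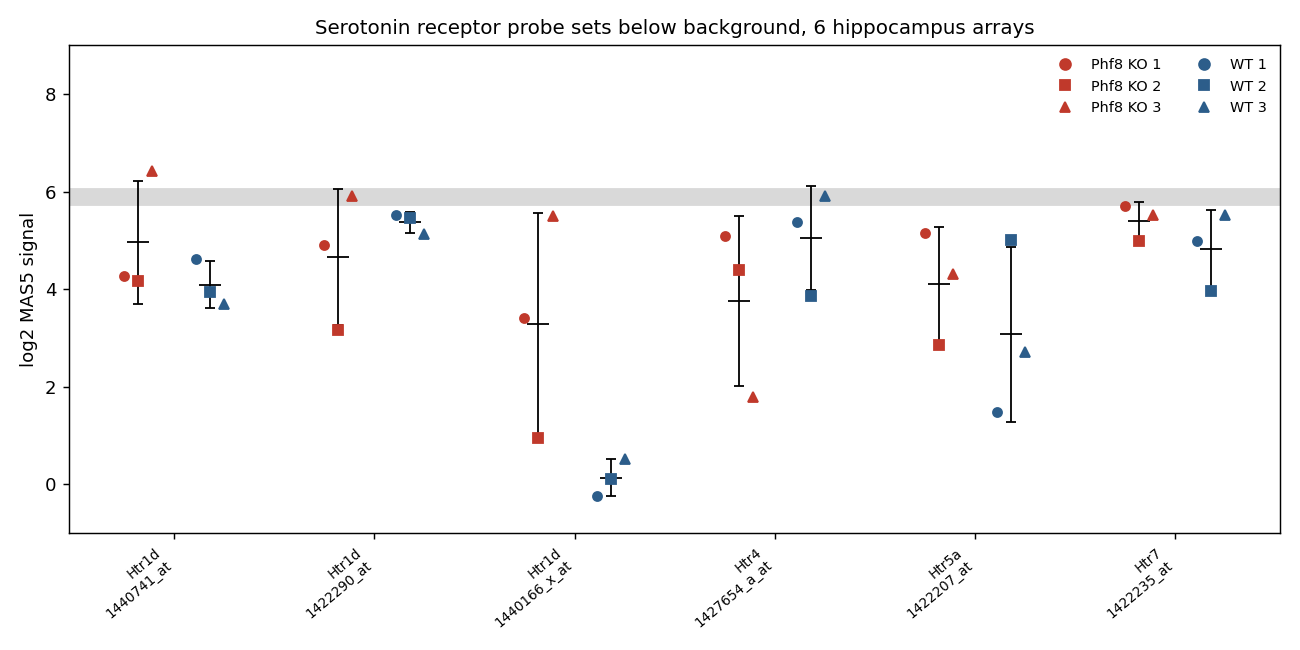
Log2 MAS5 signal (y axis) of the 6 serotonin receptor probe sets below background, on the 3 Phf8 KO arrays (left of each pair) and the 3 WT arrays, where black bars give group means and SDs. The grey band spans the background levels, from 5.73 to 6.05. Htr1d 1440741_at on KO replicate 3, at 6.42, is the only value above the level of its array.

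The 4 other serotonin receptor genes on the array were mostly below background. Htr2b, Htr3b and Htr6 were below it on all 6 arrays. Htr1f, a further Gi/o-coupled receptor, had 6.38, 6.66 and 6.81 on its kept probe set in KO replicates 1 to 3, against 5.89, 6.38 and 6.17 in WT replicates 1 to 3. Every KO array lay above every WT array, the closest pair both at 6.38. The difference was 0.47 (standard error 0.26, adjusted p = 0.788 from limma), and 0.37 without KO replicate 3. The other Htr1f probe set was below background.

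Genes that make, carry and break down serotonin were measured next, since neurons that make it lie in the raphe and not in the hippocampus. Of 19 such genes, 16 were on the array and 10 above background. Of these 10, 7 had a higher and 3 a lower mean in KO, beside 6697 and 6206 of all 12903 genes. None of them passed in limma, and their median difference was 0.15 (0.10 without KO replicate 3), beside 0.01 over all 12903 genes. Tph2, the rate-limiting enzyme of serotonin synthesis in neurons, and Slc6a4, the serotonin transporter, were not above background. Pts, which makes the cofactor of that enzyme, differed by 0.25 (adjusted p = 0.782) and the vesicular monoamine transporter gene Slc18a2 by 0.73 (adjusted p = 0.782). The decarboxylase gene Ddc differed by 0.69 (adjusted p = 0.783), and Slc18a2 and Ddc by 0.26 and 0.24 without KO replicate 3. For Aanat, a melatonin synthesis enzyme, KO minus WT was -1.14 (standard error 0.85, adjusted p = 0.801), with a value of 3.43 in KO replicate 2 below background.

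Of the G proteins and effectors through which these receptors signal, 25 of 28 were on the array and above background. Of these 25, 15 had a higher and 10 a lower mean in KO, beside 6697 and 6206 of all 12903 genes. None passed in limma, and the median was 0.04. The 4 smallest p-values belonged to adenylyl cyclase genes. Adcy1 had means of 12.90 ± 0.14 in KO and 13.18 ± 0.16 in WT (SD, n = 3 each), a difference of -0.28 (unadjusted p = 0.0348, adjusted p = 0.782). Adcy5 and Adcy8 had differences of 0.57 and 0.61, which were 0.24 and 0.28 without KO replicate 3, and Adcy9 had -0.49, which was -0.17 without it.

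Of the proteins that bind, traffic or edit the receptors, or repress their genes, 23 of 24 were measured. Of these 23, 17 had a higher and 6 a lower mean in KO, beside 6697 and 6206 of all 12903 genes. None passed in limma, and the median difference was 0.07, or -0.04 without KO replicate 3. S100a10, also called p11, binds the 5-HT1B and 5-HT4 receptors and helps to hold them at the cell surface. On 1456642_x_at, whose suffix marks probes that may match other transcripts too, it had 9.34, 9.89 and 9.30 in KO replicates 1 to 3, against 8.93, 8.75 and 9.05 in WT replicates 1 to 3. Each KO array lay above each WT array, with a difference of 0.60 (unadjusted p = 0.0175, adjusted p = 0.773), and a further kept probe set of S100a10 differed by 0.51 (unadjusted p = 0.0244).

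The smallest p of that list belonged to Hes5, a transcriptional repressor with binding sites described in the human HTR1A promoter. It had 7.64, 7.53 and 7.45 on 1456010_x_at, with the same suffix, in KO replicates 1 to 3, against 6.28, 6.34 and 6.67 in WT replicates 1 to 3. Every KO array lay above every WT array, and the difference of the means was 1.11 (standard error 0.21, unadjusted p = 0.000871, adjusted p = 0.519 from limma). On its other kept probe set Hes5 had 7.21, 6.37 and 8.06 in KO, against 6.50, 6.16 and 6.30 in WT, where the groups overlapped. Mpdz, a scaffold that binds the tail of the 5-HT2C receptor, differed by -0.41 (unadjusted p = 0.0377, adjusted p = 0.782), or by -0.23 without KO replicate 3. For Mpdz every KO array lay below every WT array. Snx27, an endosomal sorting protein, differed by -0.23 (adjusted p = 0.782).

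The genes nearest in pattern were sought for the 3 receptors with the widest range over the 6 arrays, by the root mean square difference of centred log2 signals. The nearest to Htr3a (range 1.48) were Lmo3, Tgfbr3 and Nr3c2, the mineralocorticoid receptor gene, at 0.071, 0.086 and 0.093. Like Htr3a, all of them were lowest on KO replicate 3. The nearest to Htr2c 1435513_at (range 1.41) were Ptpn13, Chst12 and 2700046G09Rik, at 0.10, 0.11 and 0.12, each highest on KO replicate 3 and lowest on WT replicate 1. For Htr1b 1422288_at (range 1.49) they were Npff, D17H6S56E-5 and Ms4a3, at 0.17, 0.20 and 0.21. Likeness was taken over 6 arrays and among genes above background, with the receptors left out. These genes were chosen by pattern, so a shared highest or lowest array follows from the choice. Chst12 had 6.17, 6.05 and 6.45 in KO replicates 1 to 3, against 5.21, 5.80 and 5.42 in WT replicates 1 to 3. All its WT values lay below the level of their arrays, so Chst12 met the background rule only through the KO arrays.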

How the data were processed

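Hippocampal RNA of 3 Phf8 KO and 3 WT samples was hybridised to Affymetrix mouse arrays. The deposited values are log2 MAS5 signals that the authors scaled per array to a trimmed mean linear signal of 497.5 to 498.2. MAS5 and affy appear in the submitters' processing notes, with no version given. GeneSpring and removal of probe sets with Absent calls are described in the paper, and those calls were not used here. The 27408 of 45037 probe sets that exceeded an array's 40th percentile on 3 or more of 6 arrays entered a limma fit (version 3.58.1, R 4.3.3, lmFit and eBayes with a variance trend), with Benjamini-Hochberg adjustment over all of them. This percentile stands in for detection calls. Genes come from the platform annotation table, which pairs 34945 probe sets with 1 gene, 932 with several and 9160 with none. The gene symbol of all 17 receptor probe sets was unchanged in RefSeq genes of GRCm38.p6. For gene lists, a gene is represented by its brightest kept probe set (12903 genes). The receptors, lists and tests were chosen with earlier results of these data known. Besides the receptors and Phf8, the text names the 4 leading genes by p of a pathway list, the nearest 3 genes in pattern and markers beside a result. Htr1f, S100a10 and Hes5 are given on every kept probe set, and genes between Htr2c and Phf8 were looked up after values were seen. Simulated data with known changes were used to test the fit. The number of arrays limits the precision. Alternatives were other normalizations, filters, an offset of 16 signal units, variance models, array weights, a replicate block, 1 value a gene and leaving out each array.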

Additional observations from a re-analysis of the deposited data

How the results depend on the processing

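The 11 receptor probe sets stayed without a call in limma except in 1 alternative: with gene-by-gene array weights, chosen after the data were seen, 1 passed (Htr2c 1435513_at, difference 0.90, adjusted p = 0.0428, with adjusted p from 0.176 to 0.999 for it elsewhere), and 307 of all probe sets. These weights give KO replicate 3 only 0.13 against 3.03 for KO replicate 1. The default array weights did not converge and are not reported. Over all probe sets 6 passed, but 1 without a filter, 0 without a trend in the variance, 2 with the replicate block, which changed no receptor call, and 0 to 64 without 1 array, 64 of them without KO replicate 3 and 0 without any 1 of the WT arrays. The pairing by number comes from the labels alone: deviations of same-numbered KO and WT arrays correlate at -0.02, 0.07 and 0.10. At least 1.5-fold higher in KO was 1 receptor probe set, but 3 with the filter at the 20th percentile, 4 with no filter, 2 with gene-by-gene weights and 1 to 3 without 1 array. At least 1.5-fold lower were 0, but 1 after quantile normalization, 1 after median centring (Htr4, at -0.60 and -0.61), 2 with the filter at the 20th percentile, 2 with no filter and 0 to 2 without 1 array. Signs turned with gene-by-gene weights for Htr1a 1450219_at (0.19), Htr1b 1422288_at (0.24), Htr3a (0.084) and Htr5a (0.0042), and without 1 array for Htr1b 1422288_at (-0.53 to 0.19), Htr3a (-0.57 to 0.15) and Htr5a (-0.22 to 0.16). The cause was not tested. Both Htr2c probe sets and Htr1b 1442077_at stayed higher and Htr1a 1438710_at, Htr4 and Htr5b lower in KO, and Htr7 higher, under the alternatives in which they were tested. The filter at the 60th percentile left 7 receptor probe sets, without Htr7, and with 1 probe set a gene only 1 of Htr2c was tested. With 3 arrays a group, 1 array can set the size of a receptor difference: Htr7 ran from 0.17 to 0.76 and Htr4 from -0.73 to -0.28 without 1 array.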

Other observations

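Htr2c and Phf8 lie on the same chromosome, the X. In the RefSeq genes of GRCm38.p6 28 protein-coding genes lie between them, of which 10 were measured above background. Of these 10, 7 had a higher and 3 a lower mean in KO, beside 6697 and 6206 of all 12903 genes. The median difference of the 10 was 0.15 (0.08 without KO replicate 3), beside 0.01 over all 12903 genes. For 2 of the 10 (20%) the groups did not overlap, beside 16.7% of all genes. The first is Alas2, the erythroid aminolevulinate synthase gene. It had 6.63, 4.62 and 4.65 in KO replicates 1 to 3, against 10.43, 10.39 and 10.15 in WT replicates 1 to 3 (adjusted p = 0.0760 from limma). Of its KO values only 6.63 is above background, so Alas2 met the background rule mainly through the WT arrays. The other is Maged2, a member of the MAGE family, with means of 9.17 in KO and 8.42 in WT, a difference of 0.75 (unadjusted p = 0.00193, adjusted p = 0.649 from limma). The allele was made on a 129/S6/SvEv background, and sequence that stayed with it around Phf8 after backcrossing was not measured. In these groups such sequence and the loss of Phf8 cannot be told apart for Htr2c, Alas2, Maged2 or any other gene near Phf8. For Alas2, fewer erythroid cells in the tissue and less RNA per cell cannot be told apart either. Other sources of these differences were not tested.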
